A study of Homo sapiens with 9 samples.

Results

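RNA of HL-60 cells that had become resistant to either of a pair of leukaemia drugs was compared with RNA of the parental cells, and the genes described here are those that moved the same way in both resistant lines. HL-60 is a human cell line from an acute myeloid leukaemia whose cells resemble promyelocytes. HRA cells are the cytarabine-resistant line, kept in 100 nM cytarabine (Ara-C), a deoxycytidine analogue that blocks DNA synthesis once phosphorylated in the cell. HRD cells are the daunorubicin-resistant line, kept in 30 nM daunorubicin (DNR), an anthracycline that traps topoisomerase II on DNA. Parental cells are HL-60 cells without either resistance. Each of these 3 groups had 3 biological replicates of polyadenylated RNA, so all 9 libraries of the study entered, 6 of them resistant. Each drug is represented by 1 resistant line, so the p-values cover the spread between replicates and not the spread between independently selected lines. The drug was present during culture, so its effects and those of resistance cannot be told apart. The values are read counts scaled by each library's size factor, called normalized reads below, and reads per library ran from 20822709 to 66563328. RNA came from whole cultures, so a smaller share of cells with a transcript and less of it per cell cannot be told apart.

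HL-60 cells stop at the promyelocyte stage, at which granulocyte precursors fill their first granules with enzymes such as myeloperoxidase. Promyelocytes normally go on to neutrophils, and the eosinophil branch fills its granules with peroxidase, cationic RNases and galectin-10 instead. Cytarabine has to enter through a nucleoside transporter and be phosphorylated by deoxycytidine kinase to act, whereas anthracyclines act on topoisomerase II and leave cells through ABC pumps. Cyclins of the D type and their kinases drive entry into the cell cycle.

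Among the 12569 genes that reached a value of 10 in at least 3 of the 9 libraries, 1491 (11.9%) had all 6 resistant values on 1 side of all 3 parental values, 761 (6.05%) above and 730 (5.81%) below. These genes are called separated. Separation is the rule by which genes were picked, so it is no further support for a gene that is said to rise or fall. The limma contrast of the average of both lines, each with the same weight, against parental cells called 1132 genes higher (9.01%) and 954 lower (7.59%) at an adjusted p below 0.05. Both criteria were met by 654 higher genes (5.2%) and 541 lower genes (4.3%), and "rose" and "fell" below are used only of these. The median size of their log2 fold changes was 0.61 for the genes that rose and 0.45 for those that fell. The larger changes were mostly rises, since 153 genes were at least 2-fold higher in each line and 36 at least 2-fold lower in each line, while 41 and 15 passed 4-fold in each line. The genes that rose lay at a median of 491 normalized reads in parental cells, those that fell at 1322, and all tested genes at 711. A further 478 higher and 413 lower calls were not separated, and in 45 and 89 of these the 2 lines lay on opposite sides of parental cells. At the edge of the rule, ADPRHL2 was just inside, with a highest parental value of 842.9 and a lowest resistant value of 843.2, and RBM20 just outside, at 0 in all parental libraries and in at least 1 resistant library. Fitting the 6 resistant libraries as 1 group, so that the difference between the lines adds to the spread, left 299 higher and 147 lower calls, which is named below where it ended a call. The lower calls numbered 597, 586 and 601 without HRA replicate 1, parental replicate 2 or parental replicate 3, and leaving out replicate 2 of every group, a setting added after the data were seen, left 522 higher and 333 lower calls. Separated genes above parental cells numbered 1195 without parental replicate 2 and 1145 without parental replicate 3, and those below numbered 1136 without parental replicate 1.

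The label HL-60 was checked against 10 promyelocyte markers, of which 9 were tested. Their summed level ran from 388933 to 424132 normalized reads in the parental libraries, from 398532 to 426366 in HRA and from 388291 to 473805 in HRD. Most of this sum came from the myeloperoxidase gene MPO, so it says little of the other markers. Among these, CTSG was lower and SRGN higher in both lines (log2 fold changes −1.04 and 0.96), as described below. The marker not tested was ELANE, the neutrophil elastase gene, with 6 reads over the 3 parental libraries, 4 over HRA and 2 over HRD. Markers of other cells were low, with 2 of 12 T and NK cell genes, 3 of 7 B cell genes, 2 of 6 erythroid and megakaryocyte genes and 2 of 9 fibroblast and epithelial genes passing the filter, and none of the tested ones both separated and called. The summed T and NK level was 739.7 to 788.9 in parental cells, 1296 to 1485 in HRA and 493 to 736 in HRD, and the B cell sum was 717 to 814, 1047 to 1096 and 282 to 345. These sums differed between the lines in opposite directions from parental cells. The erythroid and megakaryocyte sum was 109 to 148 in parental cells, 173 to 210 in HRA and 115 to 176 in HRD, and the fibroblast and epithelial sum was 84.7 to 111, 102 to 172 and 296 to 417. No read was counted for the T cell genes CD3G, CD5 and ZAP70 in parental cells and CD3E and LCK in HRD, for the B cell gene MS4A1 in either resistant line, and for the epithelial cadherin CDH1 in parental cells and HRA. The part of such cells in the results was not tested.

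Among genes with a mean of at least 100 normalized reads in each line, the rises common to both lines were led by SCG2, which encodes the granin secretogranin II of secretory vesicles, followed by cyclin D1 and the hedgehog receptor PTCH1. SCG2 stood at 19.1, 19.6 and 19.5 in parental replicates 1 to 3, 192, 296 and 144 in HRA and 452, 562 and 365 in HRD. The groups were far apart and HRD lay above HRA throughout (log2 fold change of the average 3.89 ± 0.22, SE, adjusted p = 9.31e-07, 3.31 in HRA and 4.48 in HRD). Changes in brackets and amounts after "rose by" or "fell by" are such log2 values throughout, with the SE after ±. PTCH1 stood at 24.7, 58.9 and 31.5 in parental replicates 1 to 3, 239, 302 and 239 in HRA and 376, 443 and 482 in HRD (3.18 ± 0.23, adjusted p = 7.73e-06, 2.81 in HRA and 3.55 in HRD). Its lowest resistant value was 239, against a highest parental value of 58.9. IL5RA, the receptor chain that binds the eosinophil cytokine interleukin-5, stood at 31.4, 61.3 and 30.0 in parental replicates 1 to 3, 361, 559 and 212 in HRA and 253, 366 and 214 in HRD. Its rise of 2.96 ± 0.31 (adjusted p = 1.51e-04) was 3.14 in HRA and 2.77 in HRD, and replicate 2 held the highest value in each group.

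**Figure D1:**
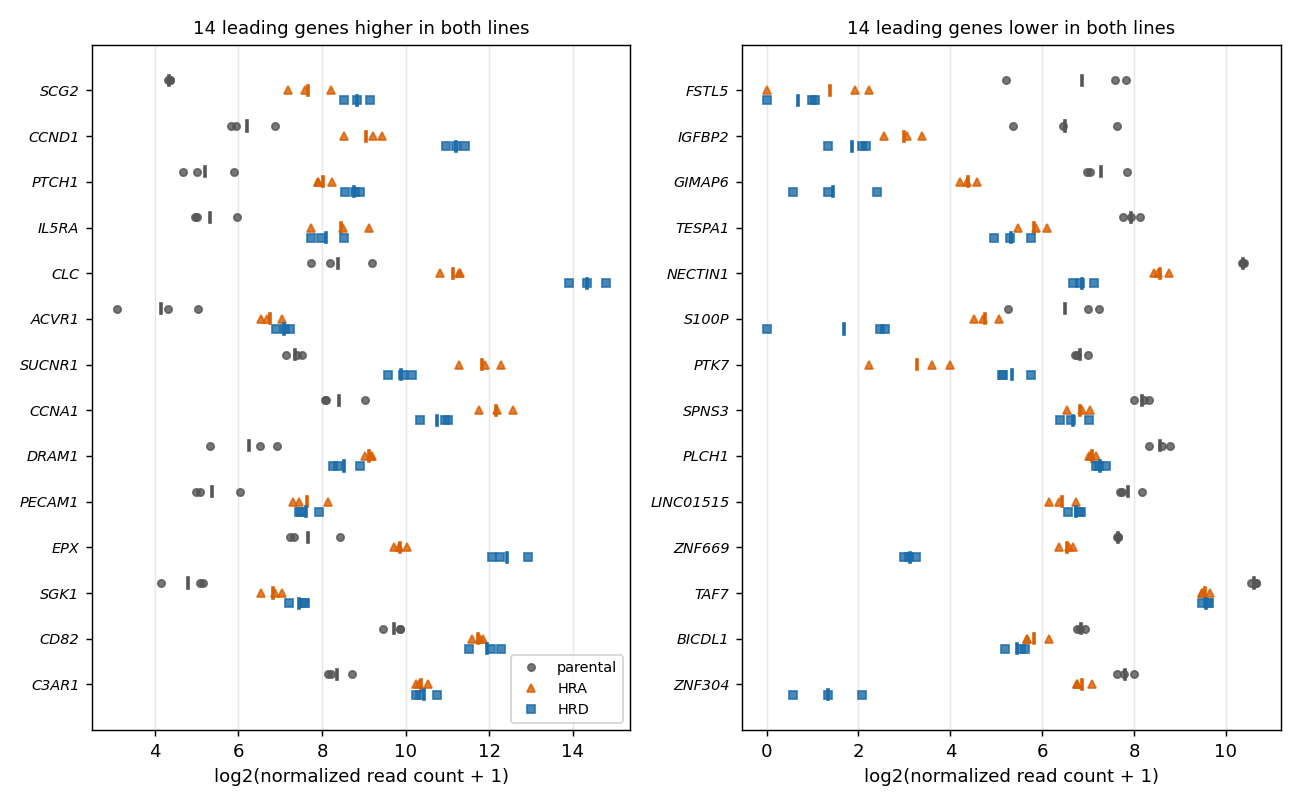
Log2(normalized read count + 1) in each of the 9 libraries (points, by group) and the group means (vertical ticks) for the 14 leading genes that rose (left) and the 14 that fell (right) in both lines. In every gene shown the 6 resistant points lie on 1 side of the 3 parental points, as the rule requires, and SCG2 lies at 19.1 to 19.6 normalized reads in parental cells against 144 to 562 in the resistant lines.

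The promoters of PTCH1 and IL5RA are printed because these are the first of the leading risers with an entry in the RefSeq promoter table of build GRCh38.p14, which gives 250 bases before and 50 after each gene's start. PTCH1 is at chr9:95509217-95509516, minus strand, and IL5RA at chr3:3110325-3110624, minus strand. Capitals mark matches on either strand to any of 6 motifs. Of the 27305 promoters of the table, TATAAA occurs in 12.0%, CCAAT in 35.7%, CACGTG in 7.43%, CGGAAG in 19.9%, GGGCGG in 44.6% and TGANTCA, where N is any base, in 7.76%. Among the 9696 tested genes with a promoter there, GGGCGG is more common, at 69.7%, and CCAAT occurs in 36.8%. The PTCH1 promoter holds 1 CCAAT and 1 GGGCGG match and 13 CpG sites, and the IL5RA promoter none of these motifs and 4 CpG sites.
PTCH1: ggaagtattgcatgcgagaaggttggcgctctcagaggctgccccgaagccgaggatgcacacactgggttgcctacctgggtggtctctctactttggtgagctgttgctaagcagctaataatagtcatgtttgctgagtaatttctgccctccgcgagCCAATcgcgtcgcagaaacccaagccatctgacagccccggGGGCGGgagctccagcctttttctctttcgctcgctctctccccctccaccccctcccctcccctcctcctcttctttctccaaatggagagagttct
IL5RA: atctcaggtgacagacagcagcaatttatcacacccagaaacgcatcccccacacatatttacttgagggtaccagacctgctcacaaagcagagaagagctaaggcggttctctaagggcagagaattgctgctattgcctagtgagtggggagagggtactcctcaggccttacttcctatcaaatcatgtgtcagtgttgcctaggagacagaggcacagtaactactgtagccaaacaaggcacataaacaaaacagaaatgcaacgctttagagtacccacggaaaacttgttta

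Among the other leading risers, SUCNR1, the receptor for succinate, was further up in HRA, at 139.7, 184 and 168 in parental replicates 1 to 3, 3810.5, 4951 and 2489 in HRA and 769, 972 and 1141 in HRD (3.50 ± 0.19, adjusted p = 9.31e-07). ACVR1, a type I receptor for bone morphogenetic proteins and activin, moved by like amounts in the lines, at 19.1, 31.9 and 7.49 in parental replicates 1 to 3, 91.4, 129.9 and 102 in HRA and 149.8, 139 and 118 in HRD (2.77 ± 0.34, adjusted p = 4.45e-04). DRAM1, a lysosomal membrane protein of autophagy, stood at 83.1 ± 41.1 in parental cells, 561 ± 35.1 in HRA and 373 ± 91.3 in HRD (SD, n = 3, in all such values). Its log2 fold change was 2.58 ± 0.29 (adjusted p = 2.05e-04). SGK1, a kinase induced by serum and glucocorticoids, rose by 2.34 ± 0.24 (adjusted p = 1.13e-04) from 28.1 ± 9.82 to 113 ± 18.8 in HRA and 176 ± 26.0 in HRD. C3AR1, the receptor for the complement fragment C3a, was 284, 419.6 and 298 in parental replicates 1 to 3, 1266, 1491 and 1218 in HRA and 1212, 1708 and 1302 in HRD. It had nearly the same change in each line, 2.002 in HRA and 2.08 in HRD (adjusted p = 6.52e-06). Each of the 14 leading risers also passed when any 1 library was left out and with the resistant libraries as 1 group.

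Some genes of granulocyte granule proteins rose, among them CLC, EPX, RNASE2 and RNASE3, whose products eosinophils are known for. Of 19 tested members of this list, 7 rose and 1 fell, and the list's median log2 fold change was 0.65, against −0.00333 over all tested genes, of which 5.2% rose and 4.3% fell. CLC, the Charcot-Leyden crystal protein or galectin-10, stood at 292, 586 and 211 in parental replicates 1 to 3, 1819, 2509 and 2465 in HRA and 20742, 28332 and 15328 in HRD. Its log2 fold change was 4.36 ± 0.28 (adjusted p = 2.38e-06), 2.76 in HRA and 5.97 in HRD, and every HRD library exceeded every HRA library. EPX, eosinophil peroxidase, stood at 159, 148 and 343 in parental replicates 1 to 3, 913, 1054 and 848 in HRA and 4318, 7723 and 4923 in HRD (3.49 ± 0.25, adjusted p = 6.94e-06). The ribonuclease genes RNASE3 (1.65 ± 0.16, adjusted p = 1.00e-04) and RNASE2 (0.99 ± 0.12, adjusted p = 4.29e-04) encode eosinophil cationic protein and eosinophil-derived neurotoxin, and being close copies may share reads. PRG2 and PRG3, which encode the major basic protein of eosinophils and its homolog, were not separated, although their averages passed (1.17 ± 0.35, adjusted p = 0.0421, and 2.003 ± 0.46, adjusted p = 0.0136). PRG2 was 18503, 24793 and 7876 in parental replicates 1 to 3, 12679, 18505 and 15171 in HRA and 70713, 133652 and 49519 in HRD, with HRA inside the parental range, and edgeR did not call it (adjusted p = 0.0603). PRG2 was no longer called without parental replicate 1 or 3, HRA replicate 1, 2 or 3 or HRD replicate 1 or 2 (adjusted p from 0.0557 to 0.184). The 1-group fit called neither PRG2 nor PRG3 (adjusted p = 0.398 and 0.117). Lysozyme (LYZ) was 3142 ± 313 in parental cells, 6882 ± 380.4 in HRA and 11028 ± 435 in HRD, a rise of 1.47 ± 0.075 (adjusted p = 5.45e-07). Serglycin (SRGN), the proteoglycan that packs granule proteins, rose by 0.96 (adjusted p = 7.93e-04) and NKG7, a granule membrane protein of cytotoxic cells, by 1.003 (adjusted p = 0.00177). The fall was that of CTSG, the neutrophil protease cathepsin G, at 11187, 9565 and 11814 in parental replicates 1 to 3, 3982, 4463 and 3914 in HRA and 6448, 7012 and 6724 in HRD (−1.04 ± 0.080, adjusted p = 1.30e-05). Myeloperoxidase (MPO), the main enzyme of the first neutrophil granules, was 295528 ± 20020.2 in parental cells, 264812 ± 14630.4 in HRA and 232664 ± 29370.4 in HRD and did not pass (−0.25 ± 0.13, adjusted p = 0.21) in limma, although DESeq2 called it (adjusted p = 0.0444). NKG7 lost its call with the resistant libraries as 1 group (adjusted p = 0.0555).

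**Figure D2:**
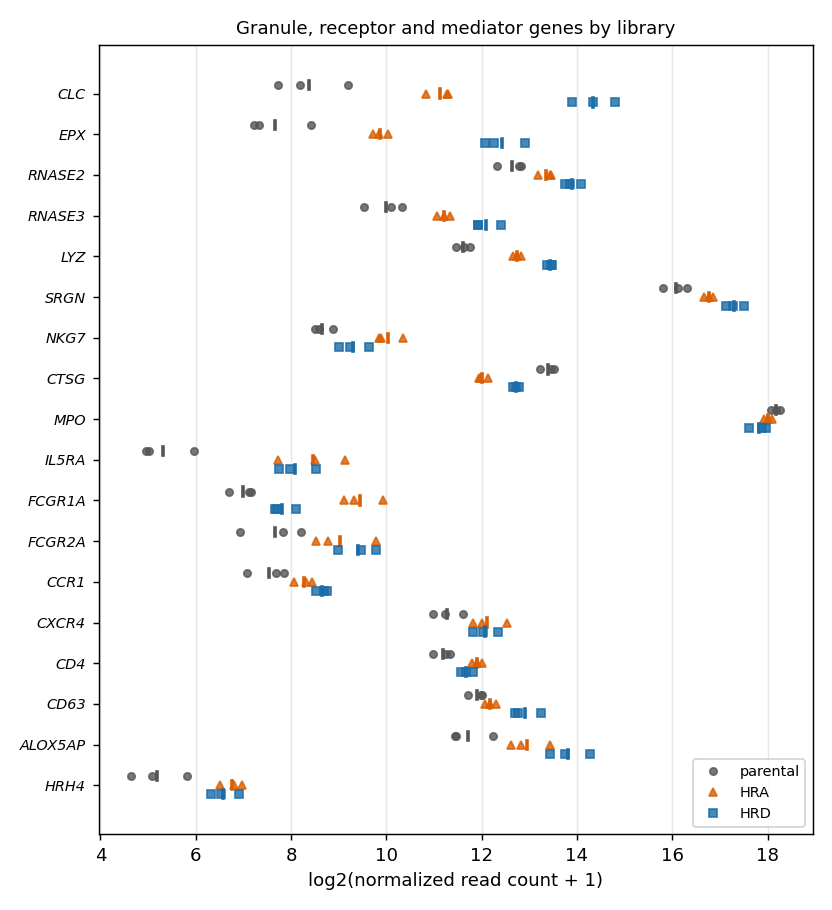
Log2(normalized read count + 1) in each library (points, by group) and the group means (vertical ticks) for 18 granule, receptor and mediator genes. CLC rises from 211 to 586 normalized reads in parental cells to at least 15328 in HRD, while CTSG lies lower in both lines and MPO is not separated.

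Some myeloid receptors and surface proteins rose. Of 25 tested members of this list, 7 rose and none fell, and the list's median log2 fold change was 0.55, where 5.2% of all tested genes rose. Beside IL5RA, the Fc receptor gene FCGR1A was 103, 139 and 142 in parental replicates 1 to 3, 637, 981 and 552 in HRA and 206, 274 and 201 in HRD, higher in HRA than in HRD (1.64 ± 0.19, adjusted p = 2.79e-04). FCGR2A, a receptor for immune complexes, rose by 1.56 ± 0.32 (adjusted p = 0.00717). Both belong to families of near-identical genes, and reads of FCGR1A may be shared with its copy FCGR1B, which rose by 2.05. The chemokine receptor CCR1 was 189.9 ± 50.05 in parental cells, 309.8 ± 41.1 in HRA and 403 ± 31.1 in HRD (0.92 ± 0.17, adjusted p = 0.00397), and CD4, which monocytes carry too, rose by 0.60 (adjusted p = 0.00161). CD63, a tetraspanin of granule membranes, rose by 0.65 (adjusted p = 0.00441), with 0.28 in HRA and 1.01 in HRD. CXCR4, the receptor that holds leukaemic cells in the marrow, rose by 0.82 (adjusted p = 0.00946). CXCR4 was no longer called without parental replicate 3 (adjusted p = 0.0517). The 1-group fit ended the calls of CD63 and FCGR1A (adjusted p = 0.152 and 0.0873). CD33, a lectin of myeloid cells targeted in leukaemia, was 2478 ± 124 in parental cells, 3046 ± 77.5 in HRA and 2528 ± 184 in HRD and did not pass (0.16 ± 0.068, adjusted p = 0.127).

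The next genes were named after their rise was seen, so they are no sample of any pathway, and the first of them make or sense lipid mediators and histamine. ALOX5AP, the partner protein of 5-lipoxygenase, was 2801, 4846 and 2765 in parental replicates 1 to 3, 7227, 11010.3 and 6276 in HRA and 13758, 19738 and 11139.6 in HRD (1.68 ± 0.23, adjusted p = 7.98e-04). Thromboxane synthase (TBXAS1) was 231, 252 and 288 in parental replicates 1 to 3, 838, 855 and 931 in HRA and 1779, 1455 and 1582 in HRD (2.204 ± 0.098, adjusted p = 2.45e-07). As the rule requires, no resistant library of either gene reached down into the parental range. HDC, the enzyme that makes histamine, rose by 1.54 ± 0.20 (adjusted p = 6.23e-04) from 28.6 ± 7.32 to 66.8 ± 9.15 in HRA and 104 ± 6.90 in HRD, and the histamine receptor HRH4 by 1.49 ± 0.25 (adjusted p = 0.00273). CYSLTR2, a receptor for cysteinyl leukotrienes, rose by 2.84 ± 0.58 (adjusted p = 0.00764) from 0, 2.45 and 2.998 in parental replicates 1 to 3, and its value was 2.21 without parental replicate 1. CYBB, the catalytic subunit of the phagocyte NADPH oxidase, was 84.7, 81.0 and 94.4 in parental replicates 1 to 3, 324, 359.8 and 349.7 in HRA and 797, 1068 and 695 in HRD (2.62 ± 0.14, adjusted p = 6.87e-07). SIGLEC7, an inhibitory lectin of myeloid and NK cells, rose by 2.998 ± 0.28 (adjusted p = 5.52e-05) and ANXA1, a calcium-dependent membrane protein of granulocytes, by 2.29 ± 0.16 (adjusted p = 4.44e-06).

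Some adhesion receptors rose. Of 23 tested members of this list, 5 rose and none fell, and the list's median log2 fold change was 0.14, beside rises in 5.2% and falls in 4.3% of all tested genes. PECAM1, the junction molecule CD31, stood at 33.1, 30.7 and 64.4 in parental replicates 1 to 3, 175, 281 and 157 in HRA and 181, 241 and 174 in HRD and changed equally in the lines, 2.26 in HRA and 2.26 in HRD (adjusted p = 2.63e-04). The tetraspanin CD82 was 927, 925 and 697 in parental replicates 1 to 3, 3487, 3704 and 3058 in HRA and 2929, 4965 and 4217 in HRD (2.12 ± 0.15, adjusted p = 6.94e-06). CD58, the ligand of CD2 on T cells, rose by 0.85 (adjusted p = 1.02e-04). The integrin chains ITGAX (1.33) and ITGB1 (0.37) made up the count, with less firm calls. ITGAX was no longer called without parental replicate 1 (adjusted p = 0.0855). ITGB1 was no longer called without parental replicate 1 or 3 (adjusted p from 0.0537 to 0.077). With the resistant libraries as 1 group, calls were lost for ITGAX and ITGB1 (adjusted p = 0.0784 and 0.109).

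Some transcription factors of blood cells rose. Of 51 tested members of this list, 5 rose and none fell, beside rises in 5.2% and falls in 4.3% of all tested genes. The list's median log2 fold change was 0.11. BACH2, a repressor known from B cells, stood at 5.61, 6.13 and 0 in parental replicates 1 to 3, 55.8, 81.2 and 45.1 in HRA and 141, 143 and 188 in HRD (4.75 ± 0.53, adjusted p = 2.18e-04, 3.82 without parental replicate 3). GFI1B, a repressor of erythroid and megakaryocyte precursors, was 1.12, 3.68 and 1.499 in parental replicates 1 to 3, 65.6, 161 and 43.9 in HRA and 4.46, 4.52 and 6.41 in HRD. Its average change of 2.90 ± 0.44 (adjusted p = 0.00134) came mostly from HRA, since it was 4.75 in HRA and 1.06 in HRD, and HRD alone did not pass (adjusted p = 0.161). BACH1, a heme-regulated repressor, rose by 0.38 (adjusted p = 0.0101), ETS2 by 0.41 (adjusted p = 0.00769) and BCL6 by 0.73 (adjusted p = 0.0307). BCL6 was no longer called without parental replicate 1, 2 or 3 or HRD replicate 2 (adjusted p from 0.0552 to 0.0972). Calls lost when the lines were fitted as 1 group were those of GFI1B, ETS2 and BCL6 (adjusted p = 0.167, 0.0779 and 0.121). MYC, which HL-60 cells carry in many copies, was 17354 ± 2289 in parental cells, 20468 ± 2001 in HRA and 16417 ± 1710.3 in HRD, without a call (0.083 ± 0.10, adjusted p = 0.633).

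Several cell cycle genes of G1 changed. Of 28 tested members of this list, 4 rose and 1 fell, and the list's median log2 fold change was 0.034. Over all tested genes, with which the lists of this paragraph can be compared, 5.2% rose and 4.3% fell. CCND1, cyclin D1, stood at 60.0, 117 and 55.5 in parental replicates 1 to 3, 591, 689 and 368 in HRA and 2342, 2733 and 2010.1 in HRD (3.92 ± 0.25, adjusted p = 2.38e-06). Its kinase CDK6 was 2612, 2444 and 2744 in parental replicates 1 to 3, 5332, 4838 and 5707 in HRA and 6536, 4652 and 7284 in HRD (1.12 ± 0.12, adjusted p = 1.87e-04). The meiotic cyclin CCNA1, which myeloid leukaemias also express, was 268, 520.2 and 273 in parental replicates 1 to 3, 4654, 6094 and 3428 in HRA and 1296, 2052 and 1951 in HRD, with HRA above HRD and both above parental cells (3.06 ± 0.24, adjusted p = 1.35e-05). E2F5, a repressor partner of the retinoblastoma family, rose by 0.64 (adjusted p = 0.00652). CCND2, cyclin D2, fell, at 6217, 6553 and 7278 in parental replicates 1 to 3, 5186, 4862 and 5299 in HRA and 1866, 1642 and 1291 in HRD (−1.23 ± 0.10, adjusted p = 3.15e-05). Its fall was −0.38 in HRA and −2.08 in HRD, HRA alone did not pass (adjusted p = 0.0537), and the call was lost in the 1-group fit (adjusted p = 0.171). Of the genes of mitosis and G2/M, 32 were tested, 1 rose and 2 fell (median −0.030). Among 33 replication genes 1 rose (median 0.055), the origin recognition subunit ORC5, at 1109.6 ± 32.4 in parental cells, 1678 ± 16.5 in HRA and 1422 ± 65.5 in HRD (0.48 ± 0.065, adjusted p = 7.93e-04). Of 47 tested genes that mend double-strand breaks or answer replication stress none rose and 1 fell (median 0.030), the Fanconi anaemia translocase FANCM (−0.31, adjusted p = 0.0164). CDC25B, a phosphatase of mitotic entry, was the mitotic gene that rose (0.34, adjusted p = 0.013), and TOP2A, described below, was 1 of the 2 that fell. FANCM was no longer called without parental replicate 1 or 3 (adjusted p from 0.0557 to 0.0659). CDC25B was no longer called without parental replicate 1 (adjusted p = 0.0575). The motor KIF11 fell by 0.25 (adjusted p = 0.0469). KIF11 was no longer called without parental replicate 1, 2 or 3, HRA replicate 1, 2 or 3 or HRD replicate 2 or 3 (adjusted p from 0.0714 to 0.144). Fitted as 1 group, the resistant libraries gave no call for FANCM, CDC25B and KIF11 (adjusted p = 0.134, 0.0873 and 0.262), and KIF11 did not pass in edgeR (adjusted p = 0.054).

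Few genes of nucleoside uptake and metabolism, among them those that handle cytarabine, rose or fell. Of 27 genes tested from the uptake and metabolism of nucleosides, 1 rose and 1 fell, where 5.2% and 4.3% of all tested genes did (median 0.029). RRM2B, the p53-induced small subunit of ribonucleotide reductase, rose by 0.48 ± 0.096 (adjusted p = 0.00693) from 487 ± 49.7 to 652 ± 42.7 in HRA and 704 ± 54.6 in HRD. The gene lies on chromosome 8, where many genes rose, as described below. For HRA the RRM2B change (0.42) was below the chromosome's median (0.49), and for HRD it (0.53) was above (0.16). Whether RRM2B rose apart from its chromosome was not tested. Adenosine deaminase (ADA) fell by 0.76 (adjusted p = 0.0235). ADA was no longer called without parental replicate 1 or 2 or HRA replicate 1 (adjusted p from 0.0573 to 0.0929). DCK, the kinase that activates cytarabine, was 4061, 4252 and 3816 in parental replicates 1 to 3, 3246, 3191 and 3141 in HRA and 4081, 3465 and 3348 in HRD. Its HRD and parental values overlapped, while every HRA value lay below the parental ones. Although the DCK average passed (−0.25 ± 0.075, adjusted p = 0.0426), it no longer did without parental replicate 1, 2 or 3, HRA replicate 1, 2 or 3 or HRD replicate 2 or 3 (adjusted p from 0.0546 to 0.156). None passed among SLC29A1, which carries nucleosides into the cell (0.040 ± 0.10, adjusted p = 0.832), the triphosphatase SAMHD1 (0.18 ± 0.076, adjusted p = 0.132) and the reductase subunits RRM1 (0.21 ± 0.090, adjusted p = 0.144) and RRM2 (0.28 ± 0.15, adjusted p = 0.217). With the replicate number as a block RRM2 did pass (adjusted p = 0.0405). The deaminase CDA was not tested, as its 3 libraries per group summed to 1 read in parental cells, 4 in HRA and 2 in HRD. No call was left in the 1-group fit for ADA and DCK (adjusted p = 0.0752 and 0.184).

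Of 13 tested anthracycline targets and reducing enzymes 3 rose and 1 fell (median 0.068), beside rises in 5.2% and falls in 4.3% of all tested genes. TOP2A, the form of topoisomerase II that proliferating cells use, fell, at 27577, 30142 and 34136 in parental replicates 1 to 3, 25971, 24054 and 25229 in HRA and 17892, 15305 and 14926 in HRD (−0.61 ± 0.089, adjusted p = 0.00117). HRA on its own did not pass for TOP2A (adjusted p = 0.0882), and the call ended in the 1-group fit (adjusted p = 0.12). TOP2B, the other form, did not pass (−0.024 ± 0.072, adjusted p = 0.858). CBR1, the carbonyl reductase that turns daunorubicin into its alcohol, was 664, 563 and 571 in parental replicates 1 to 3, 959, 812 and 842 in HRA and 791, 884 and 892 in HRD (0.53 ± 0.093, adjusted p = 0.00331). The CBR1 gene lies on chromosome 21, where many genes rose, as described below. Its changes, 0.54 (HRA) and 0.51 (HRD), were above that chromosome's medians, 0.16 and 0.33. The part of the chromosome in this rise was not tested. AKR1A1 (0.31, adjusted p = 0.0275), an aldehyde reductase, and POR (0.46, adjusted p = 0.014), the reductase of microsomal P450 enzymes, were the other risers. AKR1A1 was no longer called without parental replicate 2 or 3, HRA replicate 2 or HRD replicate 2 (adjusted p from 0.0522 to 0.118). POR was no longer called without parental replicate 3 (adjusted p = 0.0652). The 1-group fit ended the calls of AKR1A1 and POR (adjusted p = 0.0921 and 0.0604). Of 10 tested ABC transporters none rose and 1 fell (median −0.071), the mitochondrial transporter ABCB10, at 7439.8, 6966 and 7298 in parental replicates 1 to 3, 5137, 4590.0 and 5336 in HRA and 5063, 4259 and 5297 in HRD (−0.55 ± 0.082, adjusted p = 0.00122). ABCC1, the efflux pump MRP1, stood at 1713, 1939.7 and 1746 in parental replicates 1 to 3, 1916, 2039 and 1797 in HRA and 50748, 47459.6 and 44838 in HRD. Its parental and HRA ranges overlapped, so it was not separated although the average passed (2.41 ± 0.072, adjusted p = 7.13e-09), and it was 0.091 in HRA and 4.73 in HRD, a call lost in the 1-group fit (adjusted p = 0.307). ABCB1, the pump P-glycoprotein, was not tested either, with 0 parental reads, 1 in HRA and 2 in HRD.

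Signalling genes gave a few large rises. Of 26 tested TGF-beta receptors, SMADs and their partners 5 rose and none fell (median 0.10), where 5.2% and 4.3% of all tested genes did. Beside ACVR1 the largest was LTBP1, a matrix protein that stores latent TGF-beta, at 7.86, 13.5 and 0 in parental replicates 1 to 3, 90.0, 109.6 and 85.3 in HRA and 141, 161 and 157 in HRD (4.59 ± 0.64, adjusted p = 8.68e-04). Parental replicates differed for LTBP1, whose change came to 5.35 without parental replicate 2 but to 3.42 without parental replicate 3. TGFBR3 (0.94, adjusted p = 0.0127), the co-receptor betaglycan, TGIF1 (0.57, adjusted p = 0.0148), a repressor of SMAD activity, and SMAD3 (0.34, adjusted p = 0.0322) were the others. TGFBR3 was no longer called without parental replicate 1 or 3 (adjusted p from 0.0534 to 0.0546). TGIF1 was no longer called without parental replicate 3 (adjusted p = 0.0633). SMAD3 was no longer called without parental replicate 1, HRA replicate 2 or 3 or HRD replicate 2 or 3 (adjusted p from 0.0527 to 0.121). Of 40 tested genes of the RAS, MAP kinase and PI3 kinase pathway 4 rose and none fell (median −0.037). RASGRP3, an exchange factor that loads RAS proteins with GTP, was 3.37, 9.82 and 2.998 in parental replicates 1 to 3, 34.9, 66.3 and 39.0 in HRA and 61.0, 93.4 and 99.4 in HRD (3.43 ± 0.36, adjusted p = 1.41e-04). LTBP1 and RASGRP3 are neighbours in the genome, and whether their rises are independent was not tested. PIK3R5 (1.27, adjusted p = 0.00493) and PIK3CG (0.58, adjusted p = 0.00366), which encode a regulatory and the catalytic subunit of PI3 kinase gamma, both rose, and so did the MAP kinase phosphatase DUSP4 (0.98, adjusted p = 0.00331). With the resistant libraries as 1 group, calls were lost for TGFBR3, TGIF1, SMAD3, PIK3CG and PIK3R5 (adjusted p = 0.0609, 0.0548, 0.133, 0.0633 and 0.0904).

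Inflammatory genes rose in part. Of 21 tested NF-kB feedback genes and chemokines 3 rose and none fell (median 0.32), where 5.2% and 4.3% of all tested genes did. CXCL8, the neutrophil chemokine interleukin-8, was 345, 1021 and 282 in parental replicates 1 to 3, 1562, 2749 and 1145 in HRA and 6295, 9448 and 3415 in HRD (2.77 ± 0.42, adjusted p = 0.00136). Replicate 2 was the highest in each group for CXCL8, and parental replicate 2 came close to the lowest HRA value. TNFAIP3, the feedback inhibitor A20, was 204 ± 53.4 in parental cells, 596 ± 119.5 in HRA and 359.9 ± 63.1 in HRD (1.19 ± 0.18, adjusted p = 0.00148). RELA, a subunit of NF-kB, rose by 0.32 (adjusted p = 0.0195). Of 32 tested interferon-stimulated genes 3 rose and 1 fell (median 0.18), led by BST2, or tetherin, at 2928 ± 235 in parental cells, 5603 ± 132 in HRA and 4306 ± 667 in HRD (0.74 ± 0.092, adjusted p = 4.29e-04). SP100 (0.26), a nuclear body protein, and the ubiquitin ligase DTX3L (0.36) rose, and OAS1, a sensor of double-stranded RNA, fell by 0.91. RELA was no longer called without parental replicate 2 or 3 or HRA replicate 1 (adjusted p from 0.0541 to 0.083). SP100 was no longer called without parental replicate 1, 2 or 3, HRA replicate 1, 2 or 3 or HRD replicate 2 (adjusted p from 0.0543 to 0.139). DTX3L was no longer called without parental replicate 1 (adjusted p = 0.0695). OAS1 was no longer called without parental replicate 2 or 3 (adjusted p from 0.0545 to 0.0818). Of 17 tested MHC class I genes 3 rose (median 0.24), namely HLA-C (0.87 ± 0.17, adjusted p = 0.00575), the trimming peptidase ERAP1 (0.43, adjusted p = 0.0078) and the loading factor TAPBP (0.39, adjusted p = 0.0291). HLA class I genes are close copies and may share reads. TAPBP was no longer called without parental replicate 1, 2 or 3, HRA replicate 1 or 2 or HRD replicate 3 (adjusted p from 0.0551 to 0.112). None of the 7 MHC class II genes in the table was tested. Without replicate 2 of every group ERAP1 did not pass (adjusted p = 0.0673). Calls lost when the lines were fitted as 1 group were those of RELA, SP100, DTX3L, OAS1 and TAPBP (adjusted p = 0.0779, 0.122, 0.0902, 0.0873 and 0.0902).

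Metabolic genes gave mostly small changes. Of 32 tested NRF2 and glutathione genes 4 rose and 2 fell (median 0.22), where 5.2% and 4.3% of all tested genes did. PGD, an enzyme of the pentose phosphate pathway, rose by 0.45 (adjusted p = 0.00858). GSTK1, a peroxisomal and mitochondrial glutathione transferase, rose by 0.39 (adjusted p = 0.0104), and CAT (catalase, 0.30) and MGST2 (0.23) were the other risers, while TXN (thioredoxin, −0.31) and PRDX3 (peroxiredoxin 3, −0.23) fell. CAT was no longer called without parental replicate 2 or 3 (adjusted p from 0.0587 to 0.0651). MGST2 was no longer called without parental replicate 1 or 3, HRA replicate 1, 2 or 3 or HRD replicate 2 (adjusted p from 0.0571 to 0.0927). TXN was no longer called without parental replicate 1 or 2, HRA replicate 1, 2 or 3 or HRD replicate 3 (adjusted p from 0.056 to 0.141). PRDX3 was no longer called without parental replicate 1, 2 or 3, HRA replicate 1, 2 or 3 or HRD replicate 2 (adjusted p from 0.0536 to 0.0897). Of 39 tested fatty acid genes 4 rose and none fell (median 0.055). ACSL1, which activates long-chain fatty acids, was 1825 ± 136 in parental cells, 2687 ± 179 in HRA and 3242 ± 249.9 in HRD (0.69 ± 0.077, adjusted p = 2.12e-04), and CPT2, which passes them into mitochondrial oxidation, rose by 0.504 (adjusted p = 0.00326). PLIN2 of the lipid droplet (1.16) and DGAT1 of triglyceride synthesis (0.56) were less firm. PLIN2 was no longer called without parental replicate 1 or 3 (adjusted p from 0.0833 to 0.0896). DGAT1 was no longer called without parental replicate 2 or HRA replicate 1 (adjusted p from 0.055 to 0.0996). Without replicate 2 of every group GSTK1 did not pass (adjusted p = 0.0763). Fitted as 1 group, the resistant libraries gave no call for PGD, CAT, MGST2, TXN, PRDX3, PLIN2 and DGAT1 (adjusted p = 0.0823, 0.128, 0.125, 0.124, 0.151, 0.0771 and 0.088).

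Among 35 tested genes of the unfolded protein response and ATF4, 3 rose and none fell (median −0.079), where 5.2% and 4.3% of all tested genes did. The largest rise was that of the endoplasmic reticulum chaperone DNAJB9 (0.69 ± 0.12, adjusted p = 0.00262). DNAJC3 (0.30) and PPP1R15A (0.44) were the others. DNAJC3 was no longer called without parental replicate 1 or 3 or HRA replicate 1 (adjusted p from 0.05 to 0.0652). PPP1R15A was no longer called without parental replicate 1, 2 or 3 or HRA replicate 1 or 2 (adjusted p from 0.0808 to 0.114). Of 55 tested nuclear subunits of oxidative phosphorylation 2 rose (median 0.025), the complex III subunit UQCRB (0.34, adjusted p = 0.00946) and the ATP synthase subunit ATP5J (0.29, adjusted p = 0.0238). ATP5J was no longer called without parental replicate 2 or 3 or HRA replicate 1 (adjusted p from 0.0555 to 0.102). Of 25 tested genes of arginine, serine and one-carbon metabolism, methionine synthase (MTR) fell (−0.38 ± 0.078, adjusted p = 0.00788) and the arginase ARG2 rose (0.51, adjusted p = 0.0349), with a list median of −0.071. ARG2 was no longer called without parental replicate 1 or 2, HRA replicate 1, 2 or 3 or HRD replicate 2 or 3 (adjusted p from 0.052 to 0.136). None of 35 glycolysis and hypoxia genes (median 0.036), 25 sterol synthesis genes (median 0.38), 14 BCL2 family genes (median 0.13) and 72 cytosolic ribosomal protein genes (median 0.0038) was both separated and called. HL-60 cells lack p53. Of 26 genes listed as p53 targets (median 0.012), RRM2B and the death receptor TNFRSF10B (0.40) rose and TRIAP1 (−0.25) fell. RRM2B, TNFRSF10B and UQCRB lie on chromosome 8 and ATP5J on chromosome 21, where many genes rose, as described below. TNFRSF10B was no longer called without parental replicate 1 or 2 or HRA replicate 1 or 3 (adjusted p from 0.0547 to 0.102). TRIAP1 was no longer called without parental replicate 1 or 2, HRA replicate 1 or 2 or HRD replicate 2 or 3 (adjusted p from 0.051 to 0.101). Without replicate 2 of every group UQCRB and MTR did not pass (adjusted p = 0.106 and 0.109). No call was left in the 1-group fit for DNAJC3, PPP1R15A, UQCRB, ATP5J, ARG2, TNFRSF10B and TRIAP1 (adjusted p = 0.131, 0.131, 0.188, 0.127, 0.142, 0.0911 and 0.156).

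Few chromatin and SUMO enzymes changed. Of 46 tested enzymes of DNA methylation and histone modification 2 rose and 3 fell, near the 5.2% and 4.3% of all tested genes (median −0.0087). HDAC4, a class IIa histone deacetylase, rose from 447 ± 18.7 to 694 ± 48.4 in HRA and 659 ± 78.7 in HRD (0.59 ± 0.096, adjusted p = 0.00208). SUZ12, a core subunit of Polycomb complex 2, was 7933, 7898 and 8055 in parental replicates 1 to 3, 7825, 7639 and 7624 in HRA and 4059.6, 3638 and 3597 in HRD (−0.57 ± 0.062, adjusted p = 1.89e-04). All HRA libraries lay below the parental ones for SUZ12 but by little, −0.049 in HRA and −1.08 in HRD, and HRA alone did not pass (adjusted p = 0.681). SUZ12 also has a pseudogene that may share its reads. KDM6B (0.60), a demethylase of the Polycomb mark, rose, and the methyltransferase DNMT3B (−0.51) and the acetyltransferase CREBBP (−0.29) fell. KDM6B was no longer called without parental replicate 1, 2 or 3 or HRA replicate 1 or 2 (adjusted p from 0.0627 to 0.116). DNMT3B was no longer called without parental replicate 2 or 3 (adjusted p from 0.0545 to 0.0816). CREBBP was no longer called without parental replicate 2 or 3 or HRA replicate 3 (adjusted p from 0.0511 to 0.0948). Of 23 tested SUMO enzymes 1 rose and 2 fell (median −0.075), beside the same 5.2% and 4.3% of all tested genes. NSMCE2, a SUMO ligase of the SMC5/6 complex, rose by 0.46 (adjusted p = 0.00511). The protease SENP1 (−0.29) and the ligase-like coactivator ZMIZ1 (−0.31) fell. SENP1 was no longer called without parental replicate 3 (adjusted p = 0.051). ZMIZ1 was no longer called without parental replicate 3 (adjusted p = 0.0501). The changes of KDM6B and SENP1 did not pass in HRA alone (adjusted p = 0.367 and 0.514). Without replicate 2 of every group NSMCE2 did not pass (adjusted p = 0.0757). The 1-group fit ended the calls of SUZ12, KDM6B, DNMT3B, CREBBP, NSMCE2, SENP1 and ZMIZ1 (adjusted p = 0.296, 0.209, 0.0684, 0.0928, 0.133, 0.262 and 0.121).

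**Figure D3:**
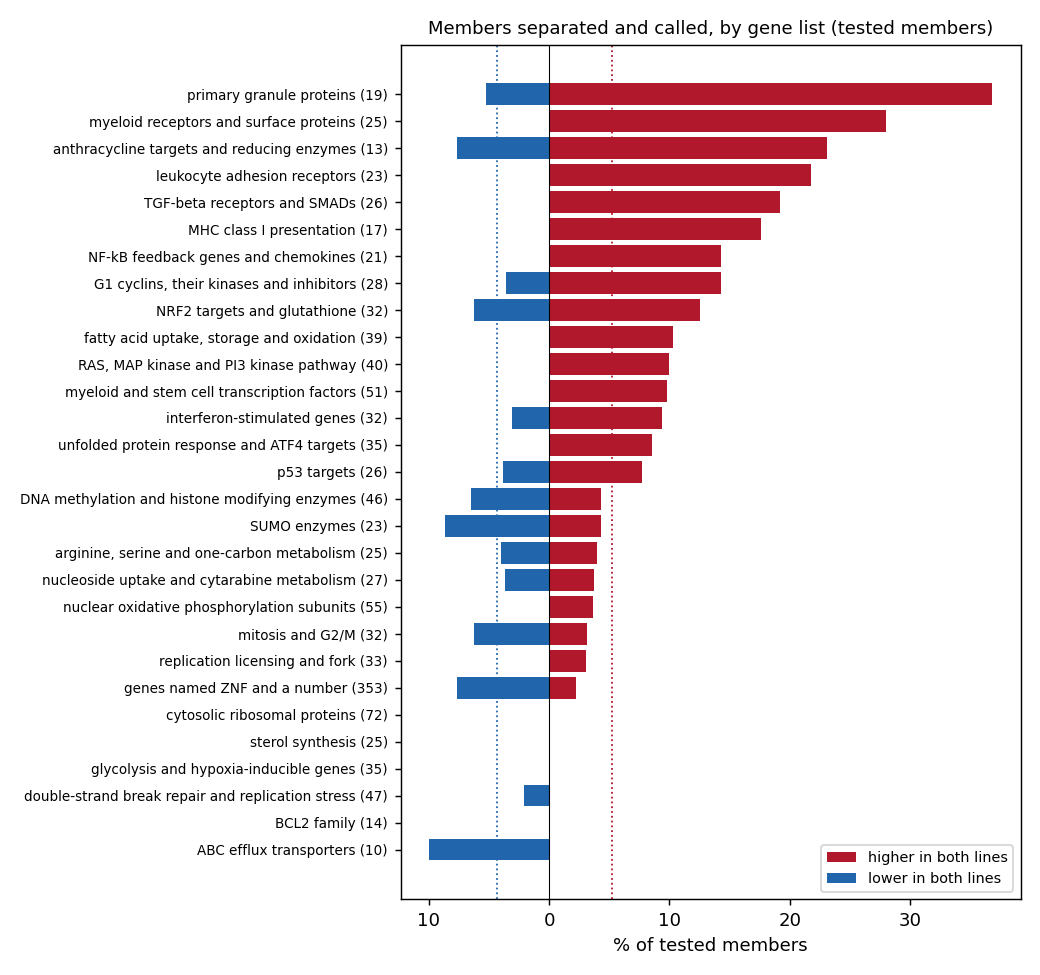
Share of tested members of each gene list that rose (right) or fell (left) in both lines, in percent, with dotted lines at the shares of all tested genes, 5.2% and 4.3%. The granule, receptor and anthracycline lists, with 7 of 19, 7 of 25 and 3 of 13 members, reach furthest to the right of the lists drawn.

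Where parental libraries averaged 100 normalized reads or more, the falls common to both lines were led by FSTL5, a secreted follistatin-like protein, and IGFBP2, which binds insulin-like growth factors. FSTL5 stood at 189.7, 226 and 36.0 in parental replicates 1 to 3, 2.79, 0 and 3.65 in HRA and 0.992, 0 and 1.07 in HRD. With 546 reads in the parental libraries against 7 and 3, FSTL5 was 71.5-fold lower in HRA (7 reads, 95% interval 34.5 to 179) and 202-fold lower in HRD (3 reads, 95% interval 68.6 to 981), by counting error alone. Its fitted change was −5.84 ± 0.66 (adjusted p = 2.29e-04), and −6.67 without parental replicate 3, which had the lowest parental value. IGFBP2 stood at 197, 87.1 and 40.5 in parental replicates 1 to 3, 4.89, 9.47 and 7.31 in HRA and 3.47, 1.51 and 3.21 in HRD, with a wide parental spread (−4.06 ± 0.46, adjusted p = 2.28e-04). NECTIN1, an adhesion molecule of cell junctions, had tight replicates, at 1347, 1313 and 1326 in parental replicates 1 to 3, 343, 432 and 368 in HRA and 139, 101 and 112 in HRD (−2.65 ± 0.12, adjusted p = 2.53e-07). TAF7, a subunit of the general factor TFIID, fell by like amounts in the lines, at 1502, 1613 and 1601 in parental replicates 1 to 3, 708, 713 and 808 in HRA and 714, 789 and 787 in HRD (−1.06 ± 0.079, adjusted p = 8.79e-06). TESPA1, a signalling protein of developing T cells, was 246 ± 31.7 in parental cells, 56.1 ± 12.2 in HRA and 40.3 ± 11.6 in HRD (−2.37 ± 0.21, adjusted p = 4.71e-05). The phospholipase PLCH1 (−1.40 ± 0.13, adjusted p = 6.03e-05), the spinster family transporter SPNS3 (−1.43 ± 0.17, adjusted p = 3.56e-04), the dynein adaptor BICDL1 (−1.20 ± 0.19, adjusted p = 0.00164) and the non-coding RNA LINC01515 (−1.28 ± 0.17, adjusted p = 7.72e-04) fell in each line. S100P, a small calcium-binding protein, was 127, 151 and 37.5 in parental replicates 1 to 3, 25.1, 32.5 and 21.9 in HRA and 4.96, 4.52 and 0 in HRD (−3.28 ± 0.59, adjusted p = 0.0037, −3.90 without parental replicate 3), and the receptor-like pseudokinase PTK7 was 107, 104 and 126 in parental replicates 1 to 3, 11.2, 14.9 and 3.65 in HRA and 33.7, 52.7 and 34.2 in HRD (−2.52 ± 0.35, adjusted p = 8.87e-04). HRA alone did not pass for S100P (adjusted p = 0.108). With the resistant libraries as 1 group, calls were lost for S100P and PTK7 (adjusted p = 0.105 and 0.0607). The promoters of the first pair are shown, with the same motifs in capitals, from the RefSeq table of GRCh38.p14. FSTL5 is at chr4:162163951-162164250, minus strand, with 2 GGGCGG matches and 11 CpG sites, and IGFBP2 at chr2:216632578-216632877, plus strand, with 1 such match and 8 CpG sites. Over whole sets the motif shares were counted but are not compared. A promoter was in the table for 66.7% of the genes that rose, 81.5% of those that fell and 77.1% of all tested genes. The sets are thus unequally and incompletely covered.
FSTL5: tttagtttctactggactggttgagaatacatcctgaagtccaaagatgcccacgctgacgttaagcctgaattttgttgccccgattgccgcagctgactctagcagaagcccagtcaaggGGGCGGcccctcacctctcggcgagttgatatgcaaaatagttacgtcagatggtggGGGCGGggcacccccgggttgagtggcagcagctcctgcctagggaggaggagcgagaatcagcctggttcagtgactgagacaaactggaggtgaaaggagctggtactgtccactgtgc
IGFBP2: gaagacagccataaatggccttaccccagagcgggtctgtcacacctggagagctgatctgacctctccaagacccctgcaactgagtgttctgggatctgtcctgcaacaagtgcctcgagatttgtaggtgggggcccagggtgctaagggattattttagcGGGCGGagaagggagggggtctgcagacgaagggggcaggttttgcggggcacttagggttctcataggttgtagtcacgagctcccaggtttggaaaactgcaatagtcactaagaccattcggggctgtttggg

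GIMAP genes, a cluster of GTPases of lymphocyte survival on chromosome 7, had 3 tested members. Of these 2 fell, where 4.3% of all tested genes did, and the list median (−4.38) is the value of GIMAP6. GIMAP6 stood at 125, 130.1 and 229 in parental replicates 1 to 3, 17.5, 22.997 and 19.5 in HRA and 0.496, 1.51 and 4.27 in HRD (−4.38 ± 0.38, adjusted p = 3.72e-05). GIMAP4 stood at 81.4, 42.9 and 115 in parental replicates 1 to 3, 5.58, 9.47 and 10.96 in HRA and 0, 0 and 1.07 in HRD, which is 9.82-fold lower in HRA (24 reads, 95% interval 6.45 to 15.6) and 285-fold lower in HRD (1 read, 95% interval 50.6 to 11286). Both were further down in HRD. Their neighbour GIMAP2 changed by −0.28 on average and did not pass (adjusted p = 0.294).

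Zinc finger genes, many of which encode DNA-binding repressors, were among the falls. Of 353 tested genes named ZNF and a number, 8 rose and 27 fell (median −0.063), where 5.2% and 4.3% of all tested genes did. The name also takes in the antisense transcript ZNF667-AS1 among the risers and ZNF731P, a pseudogene by its name, among the falls. The group was looked at after earlier results and was not tested against other genes. ZNF669 stood at 200.3, 201 and 198 in parental replicates 1 to 3, 101, 94.7 and 81.6 in HRA and 6.95, 7.53 and 8.55 in HRD (−2.82 ± 0.17, adjusted p = 1.90e-06). ZNF304 was 198, 255 and 219 in parental replicates 1 to 3, 107, 107 and 134 in HRA and 0.496, 1.51 and 3.21 in HRD (−3.71 ± 0.29, adjusted p = 1.64e-05). HRD had almost no reads of it, and HRA on its own did not pass for ZNF304 (adjusted p = 0.0846). Calls lost when the lines were fitted as 1 group were those of ZNF669 and ZNF304 (adjusted p = 0.122 and 0.2). Several less abundant ones, named after their values were seen, were close to 0 in both lines. ZNF736 had 303 parental reads and was 34.7-fold lower in HRA (8 reads, 95% interval 17.4 to 81.2) and at least 112-fold lower in HRD (0 reads). ZNF431 had 348 parental reads and was 53.2-fold lower in HRA (6 reads, 95% interval 24.2 to 146) and at least 128-fold lower in HRD (0 reads). ZNF430 had 136 parental reads and none in either line, at least 41.6-fold lower in HRA (0 reads) and at least 50.2-fold lower in HRD (0 reads). Parental replicate 3 was low for ZNF430 and ZNF431, at 11.99 and 13.5 normalized reads against 49.1 to 49.4 and 125 to 142 in the others. ZNF32, with 110 parental reads, was 50.4-fold lower in HRA (2 reads, 95% interval 13.6 to 422) and at least 40.6-fold lower in HRD (0 reads). Bounds use 3 reads over the group where a group had none, and zinc finger genes are close copies, so reads may be shared or lost between them. ZNF667 was among the 8 that rose, at 284 ± 20.6 in parental cells, 451 ± 2.70 in HRA and 461 ± 34.5 in HRD (0.68 ± 0.095, adjusted p = 8.80e-04).

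Genes outside this family were close to 0 on 1 side as well. At most 3 parental reads were counted for 6 genes that rose in both lines, and MAP2K6 fell to at most 3 reads in each line. TP63, a p53 family factor of epithelia, had 2 parental reads and was 61.1-fold higher in HRA (112 reads, 95% interval 16.5 to 511) and 28.4-fold higher in HRD (63 reads, 95% interval 7.55 to 240.0). KCNE3, a potassium channel subunit, had 3 parental reads and was 28.0-fold higher in HRA (77 reads, 95% interval 9.23 to 139) and 35.8-fold higher in HRD (119 reads, 95% interval 11.96 to 176). ST18, a zinc finger factor, had none and was at least 11.6-fold higher in HRA (32 reads) and at least 10.2-fold higher in HRD (34 reads). ALOX5 itself, 5-lipoxygenase, had 3 parental reads and was 7.999-fold higher in HRA (22 reads, 95% interval 2.40 to 41.7) and 16.0-fold higher in HRD (53 reads, 95% interval 5.17 to 79.8). ALOX5 was no longer called without parental replicate 1 or 3 (adjusted p from 0.0529 to 0.0669). The other pair was ANKRD6 (26.2-fold higher in HRA (48 reads, 95% interval 6.86 to 222) and 4.97-fold higher in HRD (11 reads, 95% interval 1.08 to 46.1)) and the antisense transcript AADACL2-AS1 (at least 31.6-fold higher in HRA (87 reads) and at least 5.12-fold higher in HRD (17 reads)), whose reads cannot be told from those of the opposite strand where counting ignored strand. MAP2K6, a kinase that activates p38, had 54 parental reads and was 24.8-fold lower in HRA (2 reads, 95% interval 6.53 to 209.6) and 59.8-fold lower in HRD (1 read, 95% interval 10.3 to 2406). Fitted as 1 group, the resistant libraries gave no call for ALOX5 and ANKRD6 (adjusted p = 0.0596 and 0.115).

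Whether the lines moved by the same amount was asked of HRD against HRA, a contrast that leaves out the parental libraries. Of the genes that rose, 160 (24.5%) differed between the lines at an adjusted p below 0.05, with HRD further from parental cells in 95 and HRA in 65. Of those that fell, 158 (29.2%) differed, HRD being further in 124 and HRA in 34. Over all tested genes 3787 (30.1%) differed between the lines, 1749 (13.9%) higher and 2038 (16.2%) lower in HRD. Against parental cells each line alone had 1915 (15.2%) calls in HRA and 2863 (22.8%) in HRD, and these comparisons share the parental libraries. Of the 149 genes named in the text that rose or fell, 34 did not pass in HRA alone and 12 did not in HRD alone. CLC, EPX, CCND1 and SCG2 rose further in HRD, by 3.21, 2.55, 2.14 and 1.16 on the log2 scale. SUCNR1, CCNA1 and FCGR1A rose further in HRA, their HRD minus HRA differences being −1.93, −1.41 and −1.64. For IL5RA, PECAM1, C3AR1, ACVR1 and TAF7 the difference did not pass, with values of −0.37, −0.0086, 0.076, 0.33 and 0.040.

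**Figure D4:**
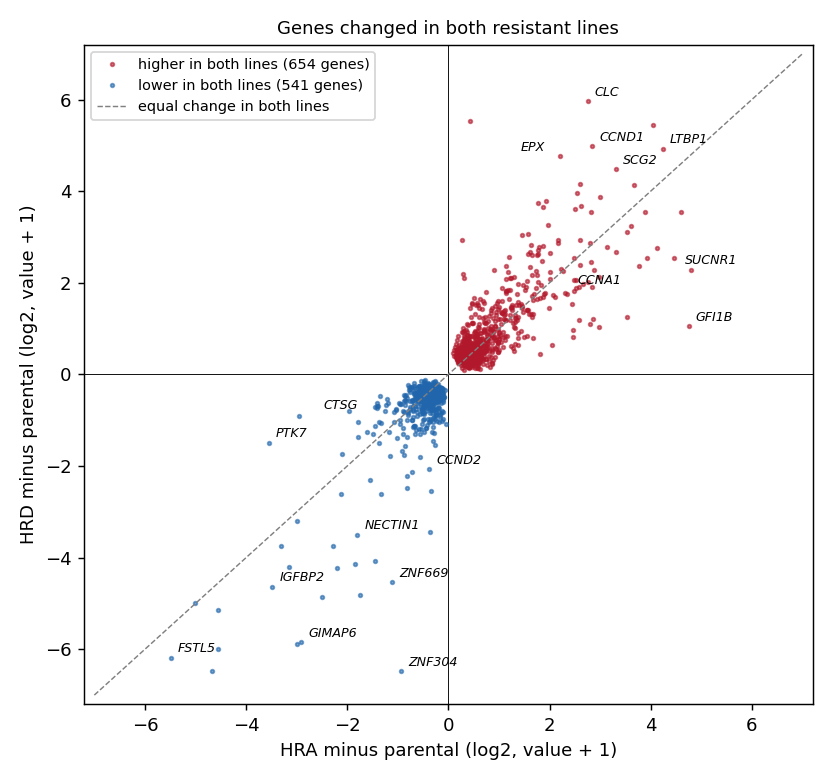
Log2 fold change against parental cells in HRA (horizontal) and HRD (vertical) for each gene that rose or fell in both lines, with the diagonal of equal change. Both axes use the same parental libraries. CLC and EPX lie above the diagonal and SUCNR1 and CCNA1 below it.

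The genes were spread unevenly over the chromosomes, where 5.2% of all tested genes rose and 4.3% fell. On chromosome 21, 32 of 128 tested genes rose (25%) and none fell, and on chromosome 8, 87 of 400 rose (21.75%) and 1 fell. Chromosome medians were 0.16 in HRA and 0.33 in HRD for chromosome 21, and 0.49 and 0.16 for chromosome 8. List members named above such as E2F5, NSMCE2, DGAT1 and UQCRB also lie on chromosome 8, and ATP5J, BACH1 and ETS2 on chromosome 21. Whether they rose apart from their chromosomes was not tested. Falls were densest on chromosome 10, where 57 of 473 fell (12.1%), and chromosome 1, where 122 of 1248 fell (9.78%). Chromosomes 20, 12 and 17 came close to chromosome 1, with falls in 8.95%, 8.92% and 8.77% of their tested genes. Neighbours also moved together. On chromosome 21, OLIG2, OLIG1, IFNAR2, IL10RB-AS1, IL10RB and IFNAR1 are consecutive tested genes and all rose. OLIG1, a factor of oligodendrocyte precursors, was 33.1, 33.1 and 30.0 in parental replicates 1 to 3, 105, 87.9 and 112 in HRA and 155, 218 and 369.8 in HRD (2.22 ± 0.24, adjusted p = 1.62e-04) and OLIG2 rose by 1.37 ± 0.21 (adjusted p = 0.00135). The interferon receptor chains IFNAR2 and IFNAR1 rose by 0.52 (adjusted p = 0.00487) and 0.43 (adjusted p = 0.00512), and the interleukin-10 receptor chain IL10RB by 0.85 (adjusted p = 0.00879), with the strand of the overlapping IL10RB-AS1 not resolved. On chromosome 17 the myeloid receptor genes CD300LB (0.85, adjusted p = 0.00871), CD300C (1.68, adjusted p = 7.20e-04) and CD300LF (1.09, adjusted p = 0.0151) rose with RAB37 (1.26, adjusted p = 0.0164) between them. CD300LF was no longer called without parental replicate 1 (adjusted p = 0.0675). RAB37 was no longer called without parental replicate 1 (adjusted p = 0.0694). No call was left in the 1-group fit for CD300LF and RAB37 (adjusted p = 0.0817 and 0.0512). On chromosome 1, which had the most tested genes, 13 such stretches of at least 3 neighbours fell. The longest held RAB4A, CCSAP, NUP133, ABCB10, TAF5L and URB2. RAB4A was no longer called without parental replicate 2 (adjusted p = 0.0853). Without replicate 2 of every group CD300LB did not pass (adjusted p = 0.0878). In the 1-group fit RAB4A and CCSAP were not called (adjusted p = 0.0827 and 0.0736). Gene order came from RefSeq, and the part of chromosome copy number in these values was not tested.

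**Figure D5:**
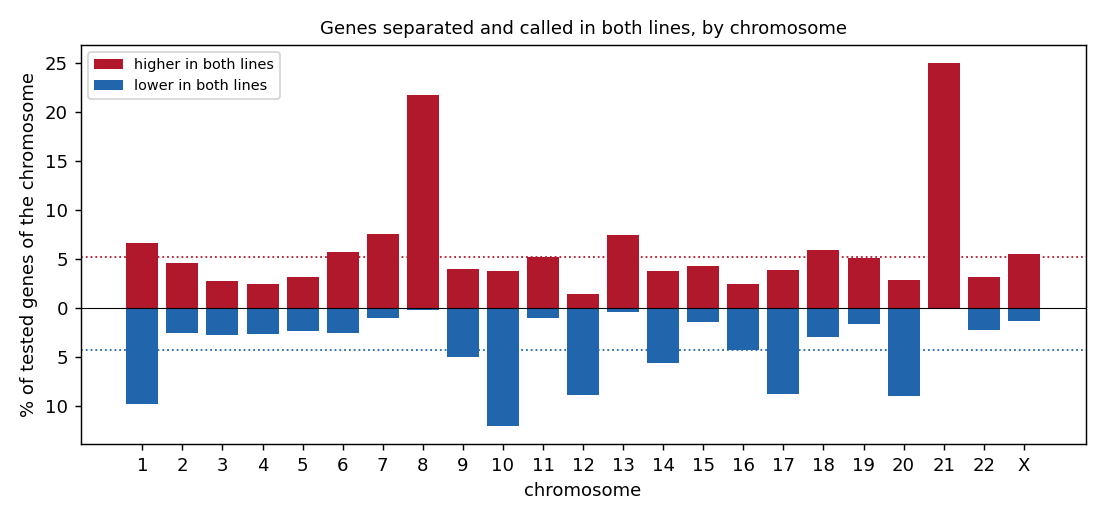
Percent of the tested genes of each chromosome that rose (up) or fell (down) in both lines, with dotted lines at the shares of all tested genes. Chromosomes 21 and 8 stand out upwards at 25% and 21.75%, and chromosome 10 downwards at 12.1%.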

How the data were processed

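Polyadenylated RNA of HL-60 parental, HRA and HRD cells was sequenced in 3 biological replicates each, per the labels. Processing used hg19 with HTSeq 0.11.1, Cufflinks 2.2.1, TopHat2 2.1.1, Bowtie2 2.3.5.1, DESeq2 and Picard, per the submitters' processing notes. What each did, the annotation, and whether counting used strand, are not given in the sources used here. The signal in the authors' deposited table is reads per gene scaled by a library size factor, for 20637 genes. All values (100%) were whole multiples of 1 constant per library within 0.001, so whole reads were recovered, 20822709 to 66563328 per library.

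Testing was limited to genes that reached 10 in at least 3 libraries (12569 genes, 99.97% of the reads), so a gene near 0 in parental cells entered only through a group where it was higher. On log2(value + 1), which understates folds of low genes, all 3 groups were fitted with limma 3.58.1 and a variance trend in R 4.3.3, and the mean of the HRA and HRD coefficients was set against parental cells with Benjamini-Hochberg adjustment over all tested genes. Log2 fold changes carry the fit's standard error (median 0.11), and means carry standard deviations. The p-values come from this moderated model unless edgeR, DESeq2 or another fit is named. The leading genes are, in each direction, the 14 separated and called genes with the largest change in the line that moved less, at a mean of at least 100 in parental cells (falls) or in each line (rises). The other named genes are separated and called members of 34 gene lists (967 genes in the table, 862 tested) and 13 genes of the drugs and of HL-60 cells, and others are named as chosen after their values were seen. Some list members are not reported here and were left out of the lists and their counts. The members, lists and tests were chosen with earlier results of these data known. Ratios of genes at 3 reads or fewer carry exact 95% counting intervals, which cover counting error only, as PCR duplicates are not marked.

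edgeR 4.0.16 and DESeq2 1.42.0 on the recovered reads, other pseudocounts, filters and scalings, a replicate block, the resistant libraries as 1 group and the omission of each library were the alternatives. The fit was tested on simulated data with 12569 genes, in which 14 of 177 calls were false. Gene names, chromosomes and neighbours came from RefSeq GRCh38.p14, which matched 12304 tested genes, and no coordinates were transferred, as the assemblies differ. Tables and figures were made in Python 3.11.15 (matplotlib 3.10.9, scipy 1.17.1, pandas 2.3.3, numpy 2.4.6).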

Additional observations from a re-analysis of the deposited data

Results flagged for a closer look

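Of the 163 tested genes named in the text, 56 differed between HRD and HRA cells in the limma contrast of these lines (adjusted p below 0.05 over all tested genes), and the HRD minus HRA log2 difference is given in brackets for each. Over all tested genes 30.1% differed. Genes that rose in both lines and lay higher in HRD were SCG2 (1.16), CCND1 (2.14), CLC (3.21), EPX (2.55), RNASE3 (0.88), RNASE2 (0.55), LYZ (0.68), SRGN (0.53), CXCL8 (1.79), ACSL1 (0.27), KDM6B (0.65), PIK3R5 (1.06), PIK3CG (0.40), CD63 (0.73), ALOX5AP (0.87), TBXAS1 (0.87), CYBB (1.28), ANXA1 (0.97) and OLIG1 (1.19). Genes that rose in both lines and lay higher in HRA were SUCNR1 (−1.93), CCNA1 (−1.41), FCGR1A (−1.64), GFI1B (−3.69), ORC5 (−0.24), TNFAIP3 (−0.72), BST2 (−0.39), UQCRB (−0.39), NSMCE2 (−0.46), CD58 (−0.28), NKG7 (−0.73), ADAM23 (−1.36), ANKRD6 (−2.29) and AADACL2-AS1 (−2.51). Among genes that fell in both lines, the lower level was that of HRD for GIMAP6 (−2.95), NECTIN1 (−1.69), S100P (−3.08), ZNF669 (−3.43), ZNF304 (−5.54), TOP2A (−0.65), GIMAP4 (−2.88), CCND2 (−1.69), KIF11 (−0.30), SUZ12 (−1.03), SENP1 (−0.42) and ZNF736 (−1.79), and that of HRA for PTK7 (2.06), CTSG (0.71) and CCSAP (0.34). Named genes that did not meet both criteria also differed between the lines: RRM1 (−0.501), ABCC1 (4.64), TOP2B (0.25), CD33 (−0.27), GIMAP2 (−0.79), PRG2 (2.35), PRG3 (1.64) and RBM20 (3.89). The difference of ABCC1 had the smallest adjusted p of these genes (2.24e-11), and in HRA it lay close to parental cells.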

How the results depend on the processing

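Counts were within 1.5 times their value under pseudocounts of 0.5 and 5, a minimum value of 50, no minimum, edgeR, DESeq2 and TMM factors, which moved the median change of all genes by 0.005. edgeR called 1105 genes higher and 971 lower, and DESeq2 1291 and 1200, against 1132 and 954. With the 6 resistant libraries as 1 group 299 were higher and 147 lower, and 443 of the 1195 genes that rose or fell still passed, since the difference between the lines then enters the spread. Without replicate 2 of every group, chosen after seeing the data, 522 were higher and 333 lower, while 1412 and 1308 genes were separated above and below, with fewer values to separate. Leaving out single libraries gave 766 to 1354 higher and 586 to 1235 lower calls, 824 to 1195 genes separated above and 789 to 1136 below, and 215 to 431 genes (318 with all libraries) that differed between the lines. Of the 149 genes named in the text that rose or fell, 133 could be fitted in every setting and 74 of these passed in all, while the other 16 lacked a value in at least 1 setting. The 1-group fit ended 58 of the 149 calls, the omission of some single library 40, that of replicate 2 of every group 37, no minimum 6, edgeR 1 and DESeq2 none. DESeq2 called MPO, and the replicate block RRM2. Among named genes without a call, SLC29A1 turned to −0.085 and TOP2B to 0.034 without parental replicate 3, TOP2B to 0.0089 without replicate 2 of every group and MYC to −0.030 without parental replicate 2, and the cause was not tested. Over single libraries left out, these ran from −0.085 to 0.17 for SLC29A1, −0.089 to 0.034 for TOP2B and −0.030 to 0.15 for MYC. Same-numbered replicates were not treated as pairs, because their deviations correlated at 0.22, 0.38 and 0.14 between parental and HRA libraries but at −0.08, 0.26 and 0.29 between parental and HRD and at −0.03, 0.41 and 0.23 between HRA and HRD, and not every library correlated best with its own number, although component 3 of all tested genes ordered the replicate numbers alike in the 3 groups. With the replicate number as a block 1529 genes were higher and 1430 lower, 402 differed between the lines and all 1195 genes passed. In simulated data 36% of 1.5-fold, 95% of 2-fold and 100% of 4-fold changes were recovered. The simulation gave every gene the same relative spread and both lines the same change, and changed only genes at higher levels. These shares therefore need not hold for the measured genes.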

Other observations

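Some genes of myeloid signalling and of the cell surface that no list covers also moved in both lines, and they are named here after their values were seen. TYROBP, the adaptor of activating receptors on myeloid cells, was 57.2, 41.7 and 40.5 in parental replicates 1 to 3, 159.8, 173 and 119 in HRA and 89.3, 236 and 143 in HRD (1.66 ± 0.27, SE, limma adjusted p = 0.00217). LGALS1, the sugar-binding protein galectin-1, was 2318, 2832 and 1473 in parental replicates 1 to 3, 6064, 7059 and 3890.1 in HRA and 4830.5, 14193 and 8455 in HRD (1.67 ± 0.31, adjusted p = 0.00437). ADGRE1, an adhesion receptor that marks human eosinophils, was 32.5, 36.8 and 55.5 in parental replicates 1 to 3, 80.3, 97.4 and 88.9 in HRA and 89.3, 131 and 108 in HRD (1.25 ± 0.21, adjusted p = 0.00231). All resistant values of these 3 genes lay above the parental ones, as the rule for a rise requires. ADAM23, a membrane protein of neurons, was 3.93, 9.82 and 2.998 in parental replicates 1 to 3, 112, 112 and 86.5 in HRA and 53.6, 31.6 and 36.3 in HRD and lay higher in HRA than in HRD (3.44 ± 0.33, adjusted p = 6.64e-05). In the principal component analysis of all tested genes, component 1 (47.5% of the variance) set HRD apart, component 2 (23.2%) set HRA apart from parental cells, and component 3 (9.07%) had replicate 2 at 1 end and replicate 3 at the other in all 3 groups.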
